A study of Gallus gallus with 9 samples.

Results

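In the liver of adult hens, 797 loci were transcribed and spliced but matched no previously identified gene. They were taken from a count table of 22082 loci, of which 4747 (21.5%) carried no gene name. Of these, 1119 had a gene model with 2 exons or more, and 797 of the 1119 passed the minimum of more than 1 CPM (counts scaled to the library total) in at least 3 of the 9 libraries. The other 322 stayed at or under this minimum, and 23 of them had no count in any library. The 797 spliced unidentified loci made up 6.47% of the 12324 loci tested, next to 10165 spliced identified genes, 1186 single-exon unidentified loci and 176 single-exon identified genes. The rule used the annotation, the exon number and the level over all libraries, and did not use the group labels. A group also has 3 libraries, so a locus that is high in 1 group can pass the minimum mainly through that group.

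Liver RNA was sequenced from 9 Isa Brown laying hens of 55 weeks of age, 3 in each of 3 groups, all hatched in 1 experiment and reared in floor pens in 1 room. The albumen-deprived hens (replicates 1 to 3) had lost 3 ml of albumen as eggs, after a day of incubation, with saline put back in its place. The sham-manipulated eggs were drilled and sealed without removal of albumen, and the non-manipulated eggs were left alone. Total counts per library ran from 13720872 to 21747636, so 1 CPM stood for 13.7 to 21.7 counts, and libraries of the same group all differed beyond counting noise (chi-square per degree of freedom of 30.1 to 100).

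A transcribed locus without a name can be a long non-coding RNA, an unannotated end or new exon of a known gene, a gene that lies in an assembly gap, or a gene of the bird lineage that the annotation missed. Splicing makes stray genomic DNA a less likely source of the reads, and the splice sites give the locus a strand. The chicken genome consists of a few large chromosomes and many small, gene-dense and GC-rich microchromosomes, which are difficult to assemble, so that parts of them remain on unplaced scaffolds. The strand of each locus here is that of its gene model, because the reads themselves carried no strand, and reads of overlapping models on opposite strands cannot be told apart.

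The loci were short and held few exons. Of the 797 loci, 354 (44.4%) had 2 exons, 190 had 3, 227 had 4 to 9 and 26 had 10 or more, with a maximum of 35. The median length of the joined exons was 879 bases and the median span on the genome was 1998 bases, compared to 3677 and 16628 bases for spliced identified genes, which had a median of 10 exons. A single transcript model was assembled at 539 loci and several at the other 258, up to 22. At the extremes, 25 loci were under 200 bases and 28 were over 10000 bases. The plus strand held 412 loci and the minus strand 385.

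The base composition set the loci apart from named genes. The median GC content was 55.95%, compared to 46.3% for spliced identified genes and 47.82% for single-exon unidentified loci. A GC content over 60% was found in 317 loci (39.8%), compared to 11.0% of spliced identified genes and 23.0% of single-exon unidentified loci. This difference went mostly with the place in the assembly. The 455 loci on chromosomes or linkage groups had a median GC content of 46.9%, near the 45.93% of spliced identified genes there. On chromosomes 1 to 5 the medians of loci and identified genes were 43.685% and 44.03%. On the small chromosomes 11 to 28 the loci were richer in GC, with 54.8% against 50.87%. The 342 loci on scaffolds had a median of 62.985%, near the 61.26% of the identified spliced genes on scaffolds. These are descriptions of the gene models, which were not tested, since loci on a sequence share its composition.

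**Figure D1:**
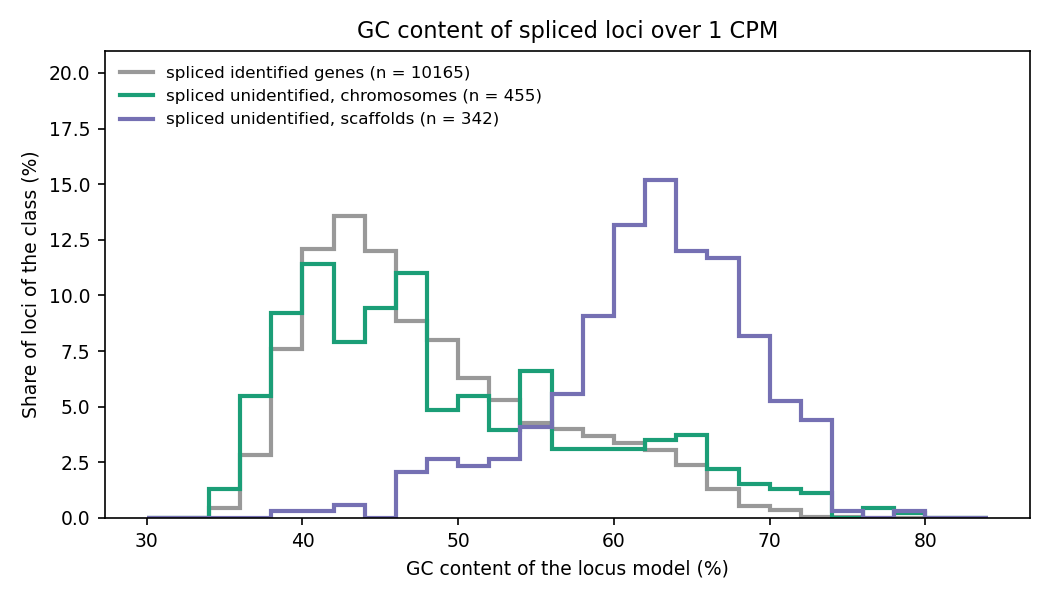
Distribution of GC content (x axis, % of the bases of the locus model) as the share of the loci of each class (y axis, %) in steps of GC content, for spliced identified genes (n = 10165), spliced unidentified loci on chromosomes (n = 455) and on scaffolds (n = 342). The loci on chromosomes and the identified genes have close medians (46.9% and 46.3%), with 90th percentiles of 64.254% and 60.54%. The loci on scaffolds lie apart with a median of 62.985%.

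Unplaced scaffolds carried 342 of the 797 loci (42.9%), compared to 4.14% of spliced identified genes and 34.4% of single-exon unidentified loci. The 342 loci were spread over 322 scaffolds, of which 304 held 1 locus and none held more than 3. Of the 342 loci, 292 ended within the first 5000 bases of their scaffold, and the median end position of all 342 was 1443. The lengths of the scaffolds themselves were not examined. For 303 loci no identified gene passed the minimum on the same scaffold, and for 291 no identified gene was listed there at all. The scaffold loci were shorter than those on chromosomes, with a median length of 496 against 1464 bases. Whether loci on different scaffolds are pieces of one gene was not tested.

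On the assembled chromosomes the loci followed the identified genes. For every 100 identified genes, there were 4.39 loci on chromosomes 1 to 5, 3.65 on chromosomes 6 to 10, 5.08 on chromosomes 11 to 28 and 4.61 on the Z chromosome, compared to 79.5 on scaffolds. Single small chromosomes varied more. Chromosome 25 had 9 loci (11.5 for every 100 identified genes), chromosome 21 had 15 (8.47) and chromosome 28 had 15 (8.29). Chromosome 18 had 3 (1.38), chromosome 22 had 1 (1.15) and chromosome 16, with 30 identified genes, had 0. The W chromosome held 1, XLOC_020966.

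**Figure D2:**
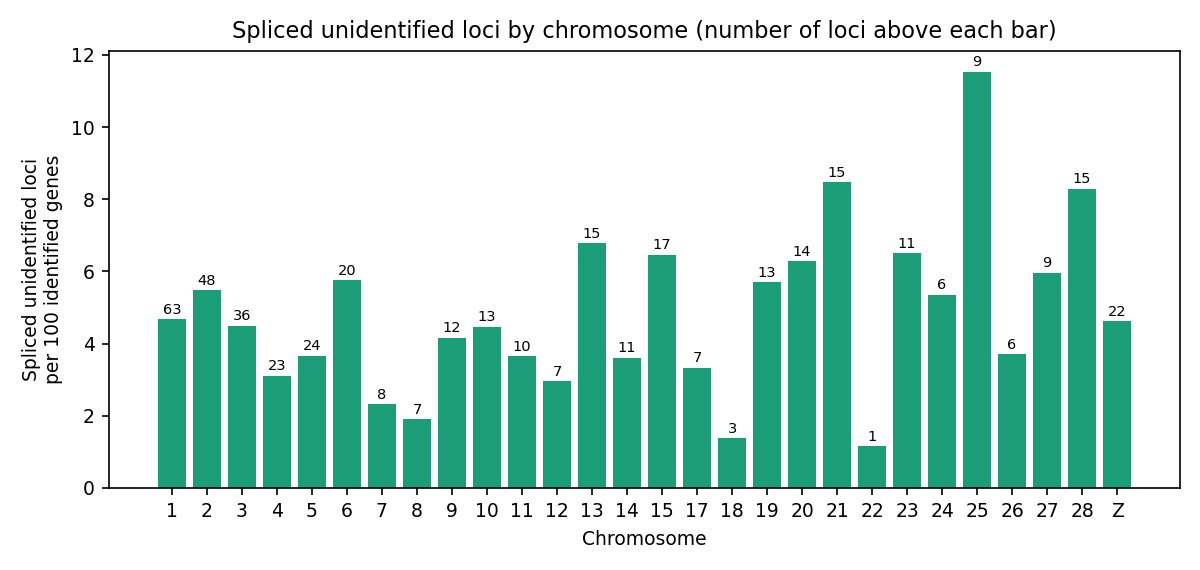
Number of spliced unidentified loci per 100 identified genes over the minimum (bars, y axis from 0) on each chromosome with at least 50 such genes (x axis), with the number of loci above each bar. Chromosomes 1 to 5 together have 4.39, and the single chromosomes shown range from 1.15 (chromosome 22) to 11.5 (chromosome 25). Chromosomes 25, 21 and 28 are highest at 11.5, 8.47 and 8.29.

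No other such locus lay within 20 kb of 657 loci, and 54 pairs, 7 runs of 3 and 2 longer runs were found. These 657 include the 304 loci alone on their scaffold, so the number partly follows from the spread over many scaffolds. The longest run held 7 loci, all on the plus strand of chromosome 21 between 6528433 and 6556608 (Galgal4), over 28.2 kb. It ended 669 bases before USP48, a deubiquitinating enzyme, on the same strand. Its last locus, XLOC_009431, had 35 exons in 5229 bases, the most of all 797 loci. Its level was 27.8, 18.2 and 25.1 CPM among the non-manipulated hens, 39.3, 21.0 and 17.6 among the sham-manipulated hens and 20.0, 21.8 and 24.0 among the albumen-deprived hens, and the groups overlapped. The other 6 loci of the run had mean levels from 0.965 CPM (XLOC_009430) to 4.48 CPM (XLOC_009427). Per kb of exon, where levels of different loci can be compared, the 7 loci lay between 1.51 (XLOC_009423) and 4.56 CPM (XLOC_009431), and USP48 lay at 6.22. XLOC_009423, XLOC_009424, XLOC_009427, XLOC_009430 and XLOC_009431 were each highest in sham-manipulated replicate 1.

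The second run held 4 loci on the minus strand of chromosome 15 between 7852041 and 7857586. They lay end to end on the 3′ side of ENSGALG00000005873, an uncharacterized protein on the same strand, and the nearest, XLOC_005550, was 98 bases away. Their levels were much alike, at 1.97 (XLOC_005547), 2.15 (XLOC_005548), 2.23 (XLOC_005549) and 1.72 CPM per kb (XLOC_005550), compared to 1.40 for ENSGALG00000005873.

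The loci were less abundant than named genes, and per base this held on chromosomes but not on scaffolds. The mean level over the 9 hens had a median of 3.84 CPM, with a range of 0.604 to 598, compared to 17.0 for spliced identified genes and 1.84 for single-exon unidentified loci. Per kb of exon the medians were 4.06, 4.35 and 1.79 CPM, and 383 of the 797 loci (48.1%) lay above the median of the spliced identified genes. On chromosomes the median per kb was 2.67 CPM, compared to 4.34 for spliced identified genes there, and on scaffolds it was 6.52 against 4.73. Before division by length the scaffold medians were 3.29 against 7.54 CPM, at median lengths of 496 against 1549 bases. The minimum was not scaled by length, so short loci passed it only at a high level per kb, which limits this comparison. All 9 libraries were over 1 CPM in 564 loci and exactly 3 were in 34 loci. In 0 of these 34 were the 3 libraries those of a single group. Together the loci took 1.08% to 1.39% of the counts of a library. This share was 1.24% ± 0.154 (SD, n = 3) in non-manipulated, 1.21% ± 0.0813 among sham-manipulated and 1.20% ± 0.0787 among albumen-deprived hens. The differences between the groups were within the spread of the hens (two-sided exact permutation tests, p = 0.9 for albumen-deprived against non-manipulated, 1 for albumen-deprived against sham-manipulated and 0.8 for sham-manipulated against non-manipulated, with 0.1 as the smallest p that 3 against 3 hens allow). The 10 largest loci held 24.9% of these counts and the 100 largest 69.5%.

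Of the 10 loci with the highest level per kb, 6 were on scaffolds with no identified gene and 4 on chromosomes. XLOC_019847, with 5 exons in 511 bases, led with 751 CPM per kb, rank 40 of all 12324 loci. It gave 261, 439 and 467 CPM among the non-manipulated hens, 387, 426 and 291 among the sham-manipulated hens and 436, 247 and 502 among the albumen-deprived hens. The groups overlapped, and the highest hen was 2.03 times the lowest. XLOC_019994 (628 CPM per kb, rank 55) and XLOC_018488 (504 CPM per kb, rank 81) followed. XLOC_018488 had the highest mean level of all 797 loci before division by length, at 598 CPM, and a GC content of 41.4%, low for a scaffold. XLOC_019079, XLOC_019345 and XLOC_019315 lay between 160 and 165 CPM per kb. In all, 14 loci were over 100 CPM per kb.

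The 4 abundant loci on chromosomes each had a named neighbour. XLOC_010160 (chromosome 24, 5104842 to 5105780, plus strand, 4 exons, 368 CPM per kb) lay 433 bases beyond the 3′ end of APOA1, the main protein of high density lipoprotein, on the opposite strand. XLOC_010160 had 293, 318 and 101 CPM among the non-manipulated hens, 110, 268 and 180 among the sham-manipulated hens and 452, 241 and 136 among the albumen-deprived hens. APOA1 had 2000, 1929 and 729 CPM, then 453, 1728 and 1198, then 2136, 903 and 1051 CPM in the same hens. For both, albumen-deprived replicate 1 was the highest hen, and non-manipulated replicate 3 and sham-manipulated replicate 1 were the lowest pair. Reads of 1 gene that ran on into the other model cannot be told apart from a locus of its own, as strand was not recorded.

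XLOC_006910 (chromosome 2, 475714 to 477597, 5 exons, 341 CPM per kb) lay 3208 bases on the 3′ side of ENSGALG00000019713, an uncharacterized protein on the same strand. That gene was at only 0.342 CPM per kb, and XLOC_006910 hardly varied, between 185 and 235 CPM in the 9 hens. XLOC_010398 (chromosome 25, 1676183 to 1677960, 4 exons, 172 CPM per kb) ended 53 bases before DUSP23, a protein phosphatase on the same strand, which was at 10.6 CPM per kb. XLOC_000578 (chromosome 1, 76658748 to 76661582, 4 exons, 156 CPM per kb) lay 6711 bases from MLF2, which was at 39.6 CPM per kb on the opposite strand. In each of these 3 pairs the unnamed locus was more abundant per kb than its named neighbour.

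An identified gene over the minimum was present on the same sequence for 494 loci, and 434 different genes were nearest to at least 1 locus. The median gap was 2794 bases (25th to 75th percentile 711.5 to 15158), with a maximum of 998454. Between spliced identified genes themselves the median gap was 2061 bases. The nearest gene overlapped 17 loci and lay within 1000 bases of 141. It was farther away but within 10000 bases for 181, beyond that but within 100000 bases for 121, and at a longer gap for 34. In all, 20 loci overlapped an identified locus of any level, 89 another unidentified locus and 12 another of the 797. The authors named models by their overlap with known genes, so few overlaps with identified loci could remain.

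**Figure D3:**
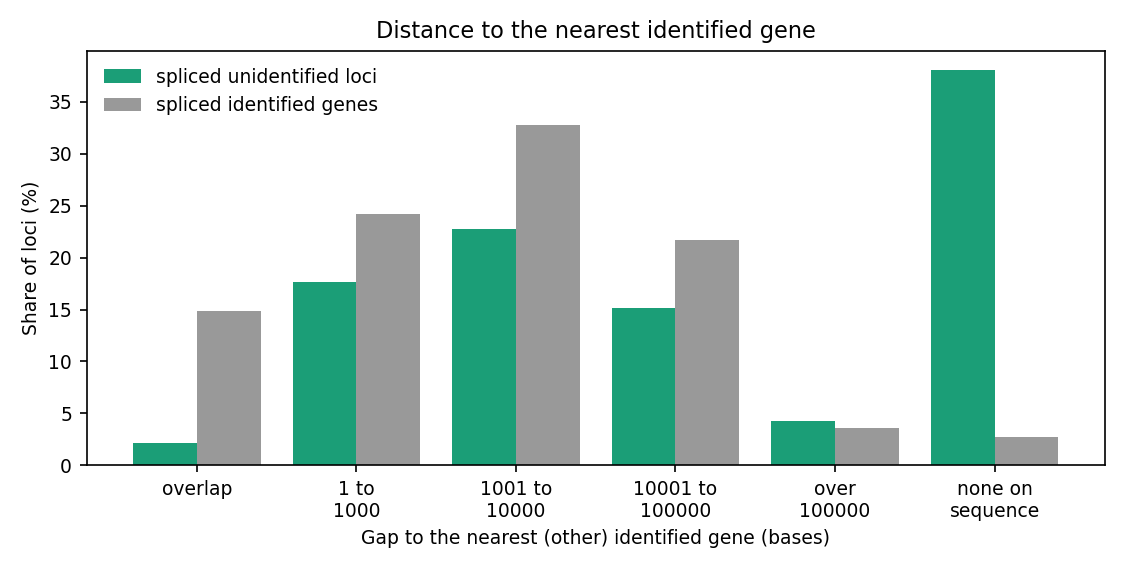
Share of loci (y axis, %) by the gap in bases to the nearest other identified gene over the minimum (x axis), for the 797 spliced unidentified loci and the 10165 spliced identified genes. For 38.0% of the unidentified loci no such gene was on the same sequence, compared to 2.76% of the identified genes. An overlap was found for 2.13% against 14.9%. The authors named models by their overlap with known genes, so the low share of overlap is partly set by the definition.

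Of the 141 loci within 1000 bases of a gene, 40 (28.4%) were on the 3′ side on the same strand, where a longer 3′ end of the gene would lie. The 5′ side on the same strand held 32 (22.7%), the 5′ side on the opposite strand, the arrangement of divergent promoters, 46 (32.6%), and the 3′ side on the opposite strand 23 (16.3%). For pairs of identified genes at this distance the shares were 20.3%, 20.3%, 35.6% and 23.7%. Levels of a locus and its neighbour were compared across loci. The loci are not independent replicates and share their libraries. Spearman's rho of the level per kb was 0.01 for the 322 loci with a gap of up to 10000 bases and -0.08 for the 155 with a longer one. Of the 494 loci, 296 had a lower level per kb than the nearest gene.

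The 5 longest loci were on chromosomes, each with several transcript models. XLOC_014150 was the longest (chromosome 4, 69242054 to 69292491, minus strand, 7 exons, 34708 bases), on the 3′ side of TBC1D1, a Rab GTPase-activating protein. It overlapped XLOC_013566, on the plus strand, over 18628 bases, and both models start at the same base. Reads that fitted both models were not counted by the authors, so the level of either can be too low. XLOC_014150 had 9.82, 10.2 and 7.63 CPM among non-manipulated, 13.4, 12.3 and 11.3 among sham-manipulated and 8.67, 15.5 and 17.1 among albumen-deprived hens. The sham-manipulated hens were all above the non-manipulated hens, and the albumen-deprived hens overlapped both. XLOC_012413 (chromosome 3, 24071 bases, 3.87 to 12.0 CPM) overlapped ENSGALG00000010993. XLOC_005032 (chromosome 14, 21313 bases) lay 92798 bases from CACNA1H, a T-type calcium channel, and varied from 21.6 to 114 CPM. XLOC_014859 and XLOC_008288, also among these 5, are described next.

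Some loci were abundant in certain hens and close to absent in others. At least 10 CPM in 1 hen and at most 1 CPM in another was found in 20 of the 279 loci that reached 10 CPM (7.17%), compared to 30 of 7250 spliced identified genes (0.414%) and 17 of 155 single-exon unidentified loci (11.0%). In 13 of the 20 both hens were found inside 1 group, and in the other 7 only in different groups. All 20 lay on chromosomes, with a median length of 4197.5 bases and a median GC content of 44.125%. Among loci with a mean over 30 CPM, the highest hen was over 10 times the lowest in 11.2% of the spliced unidentified loci and in 0.629% of the spliced identified genes. For single-exon unidentified loci at this level it was 0 of 23. The contrast between spliced unidentified loci and spliced identified genes was smaller under 3 CPM, with 8.41% and 5.58%, where counting error is larger. Single-exon unidentified loci under 3 CPM had 11.6%.

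XLOC_008288 (chromosome 2, 114319776 to 114369500, 9 exons, 18177 bases) lay on the 5′ side of CYP7B1, an enzyme of bile acid synthesis, 60092 bases away. It had 230, 0.601 and 142 CPM among the non-manipulated hens, 72.4, 98.9 and 92.4 among the sham-manipulated hens and 0.582, 111 and 0.856 among the albumen-deprived hens. Hence 6 hens were above 70 CPM and 3 below 1 CPM. CYP7B1 itself lay between 168 and 365 CPM in the 9 hens and was not low in those 3.

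XLOC_009536 (chromosome 21, 4882387 to 4884027, 2 exons) lay 1308 bases on the 3′ side of MUL1, a mitochondrial ubiquitin ligase. It had 301, 4.81 and 310 CPM among non-manipulated, 113, 148 and 150 among sham-manipulated and 5.76, 4.23 and 258 among albumen-deprived hens, a ratio of 73.2 between the highest and the lowest hen. MUL1 varied only from 4.68 to 9.76 CPM. XLOC_009536 had the largest such ratio among the 564 loci over 1 CPM in all hens.

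XLOC_014859 (chromosome 5, 36541603 to 36608869, 11 exons, 24309 bases) lay 23334 bases before SS1R, a somatostatin receptor on the same strand. It had 389, 11.7 and 138 CPM among non-manipulated, 24.4, 9.24 and 8.78 among sham-manipulated and 112, 12.7 and 82.5 among albumen-deprived hens. SS1R had 358, 117 and 244 CPM, then 229, 136 and 102, then 301, 132 and 221 CPM. The 4 hens highest for the locus were, apart from sham-manipulated replicate 1 in place of albumen-deprived replicate 3, also the 4 highest for the receptor. The difference between sham-manipulated and non-manipulated hens had an unadjusted P-value of 0.0107 (edgeR quasi-likelihood F-test, log2-fold change -3.67 ± 1.15 SE, Benjamini-Hochberg adjusted p = 0.906).

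The other 3 loci with the largest ratios were XLOC_007462, XLOC_021509 and XLOC_021077. XLOC_007462 (chromosome 2, 254307 bases from the cell adhesion gene CDH2) had 9.89, 156 and 29.6 CPM among non-manipulated, 71.3, 63.2 and 11.2 among sham-manipulated and 3.75, 67.9 and 6.85 among albumen-deprived hens. XLOC_021509 lay on the Z chromosome, 36354 bases from the prolactin receptor gene PRLR. It had 4.13, 17.0 and 3.59 CPM, then 2.09, 1.14 and 2.31, then 22.6, 3.31 and 37.2 CPM for the groups in this order. XLOC_021077, also on the Z chromosome, was at 1.80 CPM among non-manipulated replicate 2 and between 14.0 and 49.6 CPM in the other 8 hens. Each of these had high and low hens in at least 1 group.

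Outside the loci named by a rule, 5 more were chosen after their values were seen, as the sharpest cases. XLOC_001293 (chromosome 1, 139850 bases from the hepatocyte growth factor gene, HGF/SF in the annotation) had 76.6, 116 and 101 CPM in 1 hen of each group and at most 1.18 CPM in the other 6. XLOC_007091 (chromosome 2, 101352 bases from the transcription factor gene SP4) had 49.2, 62.5 and 25.5 CPM in 1 hen of each group and at most 0.856 CPM in the other 6. XLOC_008053 (chromosome 2) had 10.2 to 28.2 CPM in 5 hens and at most 0.132 CPM in 4. XLOC_004565 (chromosome 13, 246312 bases from the clathrin interactor gene CLINT1) was above 70 CPM in 6 hens, up to 336 CPM, and between 0.534 and 2.84 CPM in the other 3. XLOC_008356 (chromosome 2) had counts of 1, 2 and 2 in the non-manipulated hens, at the floor of 3 counts. Its counts were 238, 52 and 0 in the sham-manipulated hens and 0, 97 and 203 in the albumen-deprived hens, which also include hens without a count, so no fold is given. The high hens of XLOC_001293 and XLOC_007091 were the same in the non-manipulated and sham-manipulated groups and differed in the albumen-deprived group.

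**Figure D4:**
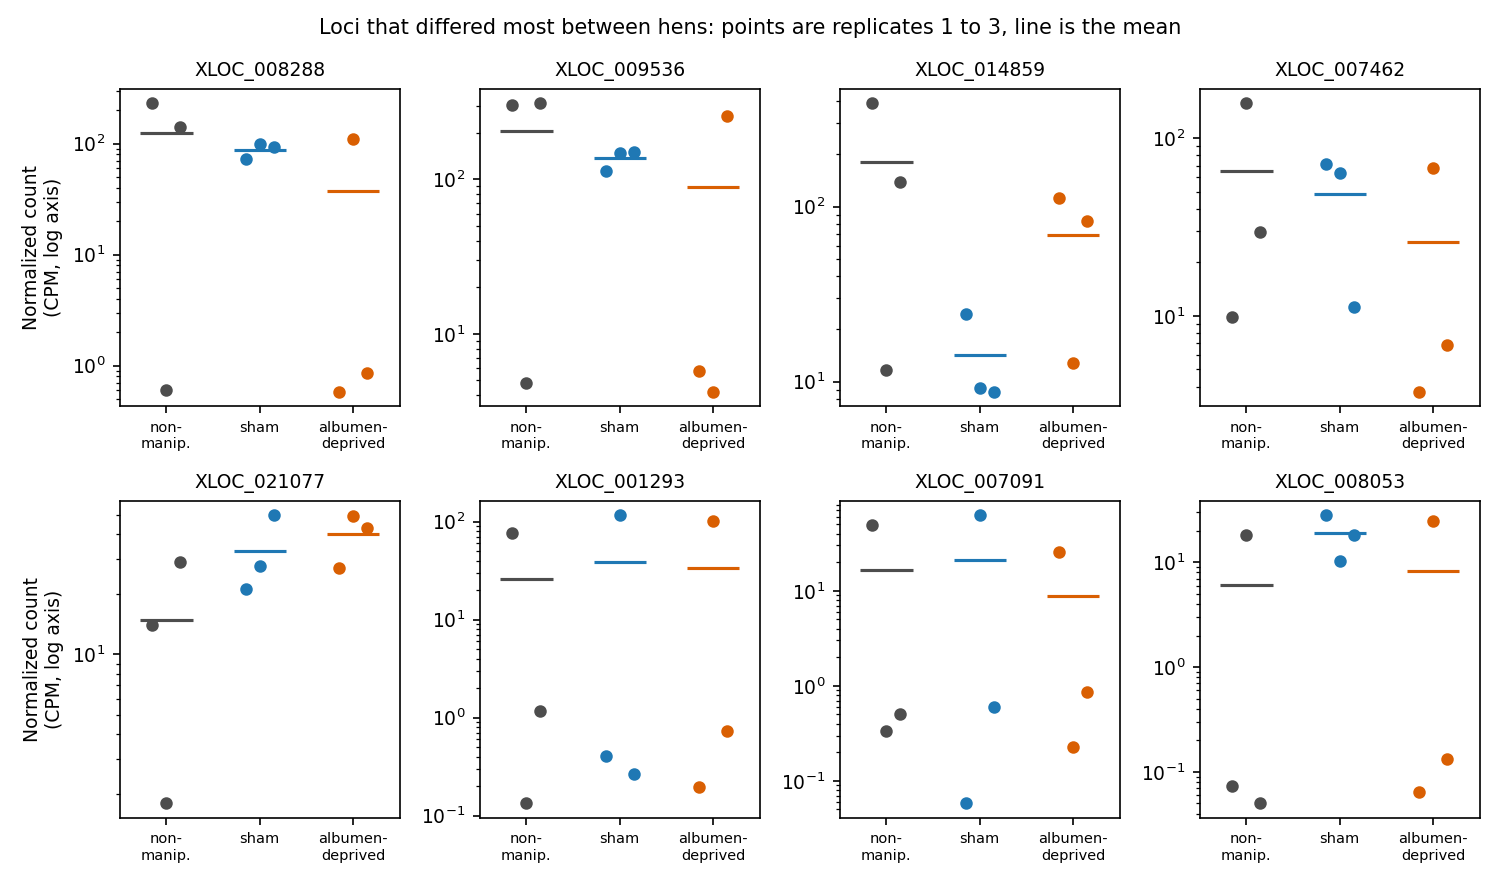
Normalized count (y axis, CPM on a log axis) of 8 loci in the 3 hens of each group (points, replicates 1 to 3 from left to right) with the group mean (line). A library without counts is drawn at the lower limit of 0.05 CPM (non-manipulated replicate 3 of XLOC_008053). XLOC_008288 splits into 6 hens above 70 CPM and 3 below 1 CPM, and XLOC_001293 and XLOC_007091 are high in 1 hen of each group.

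In the comparison of albumen-deprived with non-manipulated hens, 2 of the 797 loci passed the cut-off of P under 0.001 and a log2-fold change over 1, and both were higher (0.0487% of all loci passed). These 2, XLOC_007417 and XLOC_007416, lay 6066 bases apart on the same strand of chromosome 2, so they may not be independent. XLOC_007416 passed the minimum mainly through the albumen-deprived hens. An unadjusted P-value under 0.05 was found in 34 loci (4.27% of the 797, background 3.23%), of which 14 were higher (background 1.66%) and 20 lower (background 1.57%). The 3 hens of both groups did not overlap in 63 loci (7.90%, background 8.39%). The median log2-fold change was -0.00, as over all loci (0.01). The count past the cut-off was 0 without non-manipulated replicate 1, 2 or 3 or albumen-deprived replicate 3, and 1 without sham-manipulated replicate 1 or 3 or albumen-deprived replicate 1. Without albumen-deprived replicate 1 this was not 1 of the 2 loci but XLOC_009191 (edgeR, log2-fold change 2.35, unadjusted P-value of 4.22e-05, adjusted p = 0.260). Without albumen-deprived replicate 2 the count was 2, with 1 locus higher and 1, XLOC_019546, lower. The count of 34 fell to 17 without albumen-deprived replicate 1, and 9 of these were higher and 8 lower. It was 35, with 18 higher and 17 lower, when non-manipulated replicate 1 was left out, so which direction was more frequent was not stable.

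In the comparison of albumen-deprived with sham-manipulated hens, 3 loci passed the cut-off, all higher (background 0.105%). An unadjusted P-value under 0.05 was found in 68 loci (8.53%, background 7.13%), with 54 higher (background 4.11%) and 14 lower (background 3.02%). Groups did not overlap in 118 loci (14.8%, background 12.8%), and the median log2-fold change was 0.01, compared to -0.01 over all loci. The count past the cut-off was 6 without non-manipulated replicate 2 and 5 without albumen-deprived replicate 2. The 14 lower loci became 25 without sham-manipulated replicate 2, 28 without albumen-deprived replicate 2, 23 without albumen-deprived replicate 3 and 8 without albumen-deprived replicate 1, while the higher ones stayed the more frequent.

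In the comparison of sham-manipulated with non-manipulated hens, 2 loci passed the cut-off, both lower (background 0.0649%). An unadjusted P-value under 0.05 was found in 66 loci (8.28%, background 5.28%), with 15 higher (background 2.3%) and 51 lower (background 2.98%). Groups did not overlap in 95 loci (11.9%, background 9.71%), with a median log2-fold change of -0.01, compared to 0.01 over all loci. Without non-manipulated replicate 1 the number with an unadjusted P-value under 0.05 was 27 instead of 66, and 0 passed the cut-off. Without sham-manipulated replicate 1 the number was 42. None passed the cut-off without non-manipulated replicate 3 or albumen-deprived replicate 2 either. Without non-manipulated replicate 2 the count was 4, but these included neither of the 2 loci. Leaving out any of the sham-manipulated hens gave 1. Without sham-manipulated replicate 1 or 2 this was not 1 of the 2 loci. This comparison and the previous one share the sham-manipulated hens, so that their counts are not independent.

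In all 3 comparisons 0 of the 797 loci had a Benjamini-Hochberg adjusted p under 0.05 in edgeR's quasi-likelihood F-test, and so had 0 of all 12324 loci (0%), against the 34, 68 and 66 of the 797 with an unadjusted P-value under 0.05. The smallest adjusted p among the 797 loci in this F-test were 1.00, 0.226 and 0.893. Over all loci tested they were 0.0640, 0.226 and 0.109. With edgeR's likelihood ratio test 2, 6 and 2 of the 797 loci had an adjusted p under 0.05 (0.251%, 0.753% and 0.251%), compared to 0.0487%, 0.252% and 0.0487% of all loci. With DESeq2 they were 2, 8 and 2 of the 793 loci given an adjusted p (0.252%, 1.01% and 0.252%), compared to 0.065%, 0.341% and 0.0812% of 12316 loci. In liver tissue, fewer cells of a type and less RNA per cell cannot be told apart.

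The loci on chromosomes and on scaffolds differed in these counts. On chromosomes 53 of 455 loci (11.6%) had an unadjusted P-value under 0.05 between albumen-deprived and sham-manipulated hens, 45 of them higher, and 52 (11.4%) for sham-manipulated against non-manipulated hens, 45 of them lower. Over all loci on chromosomes the shares were 7.43% and 5.30%. On scaffolds the numbers were 15 (4.39%) and 14 (4.09%) of 342 loci, compared to 4.32% and 5.08% of all loci there. The median log2-fold change of the loci on chromosomes was 0.07 and -0.14 in these comparisons, and that of the loci on scaffolds -0.07 and 0.09. Between albumen-deprived and non-manipulated hens the shares were 4.40% on chromosomes and 4.09% on scaffolds, compared to 3.19% and 3.64% of all loci there. The difference between the places was not tested, and the loci also differ in GC content and level.

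Hepatocyte markers made up 145641 to 232314 CPM of each library, as the tissue is labelled. The markers of other cells were summed over their lists. Macrophage genes (4 of 7 found) had 165 to 596 CPM among non-manipulated, 519 to 582 among sham-manipulated and 582 to 593 among albumen-deprived hens. The non-manipulated range spanned both others. The highest sham-manipulated hen (581.8 CPM) lay next to the lowest albumen-deprived hen (581.9 CPM). Heterophil granulocyte genes had 8.22 to 32.3, 10.4 to 45.3 and 4.41 to 11.1 CPM in the same order, and these ranges overlapped. T and NK cell genes (29.8 to 59.4 CPM), B cell genes (22.4 to 66.9), stellate cell genes (159 to 382) and bile duct genes (2.44 to 5.05) overlapped between all groups. The erythrocyte genes found (3 of 7) were at 0.200 to 1.10 CPM, with HBAA at 0. The part of these cells in the results was not tested.

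The locus with the smallest P-value in both comparisons of albumen-deprived hens lay in the interval between 2 melanocortin receptor genes on chromosome 2. XLOC_007417 (96419929 to 96436809, plus strand, 3 exons, 4676 bases) ended 2623 bases beyond the 3′ end of MC5R, the melanocortin receptor 5 gene on the opposite strand. It had 2.73, 1.14 and 2.58 CPM among the non-manipulated hens, 1.04, 1.49 and 0.792 among the sham-manipulated hens and 12.2, 4.86 and 11.4 among the albumen-deprived hens. All 3 albumen-deprived hens were above the 6 others. The log2-fold change was 3.07 ± 0.46 (SE) against sham-manipulated hens (edgeR, unadjusted P-value of 7.18e-05, Benjamini-Hochberg adjusted p = 0.226) and 2.13 ± 0.43 against non-manipulated hens (unadjusted P-value of 0.000729, adjusted p = 1.00). The first stayed past the cut-off in all 20 alternatives run, with adjusted p between 7.71e-07 and 0.570. The second did so in 7 of 20, with adjusted p from 0.00724 to 1, and was lost without non-manipulated replicate 1, 2 or 3, sham-manipulated replicate 1 or 3 or albumen-deprived replicate 1 or 3 (P up to 0.00359).

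XLOC_007416 (chromosome 2, 96409512 to 96413863, plus strand, 2 exons, 806 bases) lay 6066 bases before XLOC_007417 on the same strand and 4021 bases after MC2R, the corticotropin receptor gene. It had 0.443, 0.200 and 0.785 CPM among non-manipulated, 0.464, 2.14 and 0.462 among sham-manipulated and 4.01, 3.43 and 6.06 among albumen-deprived hens. In counts this was 6, 3 and 14, then 8, 43 and 7, then 62, 60 and 92. The albumen-deprived hens were again above all others. Only these hens and sham-manipulated replicate 2 were over 1 CPM, so the locus passed the minimum mainly through the albumen-deprived hens. The fitted difference to non-manipulated hens was 3.19 ± 0.67 (SE) on the log2 scale (edgeR, unadjusted P-value of 0.000923, adjusted p = 1.00) and 2.10 ± 0.61 against sham-manipulated hens, which missed the cut-off (unadjusted P-value of 0.00695, adjusted p = 0.561). The former was past the cut-off in 10 of 20 alternatives (adjusted p from 0.00724 to 1) and was lost when any non-manipulated or albumen-deprived hen was left out (P up to 0.00474).

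The span of XLOC_007417 also held 9 single-exon unidentified loci. The 3 of them over the minimum were XLOC_008687, XLOC_008688 and XLOC_008691. XLOC_008688 had 1.25, 0.668 and 0.842 CPM among non-manipulated, 0.522, 0.497 and 0.264 among sham-manipulated and 5.18, 2.06 and 6.45 among albumen-deprived hens, so that the albumen-deprived hens were highest here too. XLOC_008687 and XLOC_008691 were likewise highest in the 3 albumen-deprived hens, at 1.31 to 3.75 and 1.03 to 1.78 CPM. XLOC_008691 was over 1 CPM in these 3 hens only, and XLOC_008687 and XLOC_008688 in them and non-manipulated replicate 1. The order of the hens is therefore partly set by the minimum. These models share an interval and may share a transcript, so they are not further evidence. MC5R itself, at 187, 217 and 183 CPM among non-manipulated, 149, 167 and 211 among sham-manipulated and 91.3, 114 and 174 among albumen-deprived hens, had a log2-fold change of -0.63 ± 0.23 against non-manipulated hens (edgeR, unadjusted P-value of 0.0248, adjusted p = 1.00). MC2R had at most 0.148 CPM in any library. On the other side of MC5R, the single-exon unidentified locus XLOC_008697 (96444305 to 96449462) was also highest in the 3 albumen-deprived hens. It had 3.62, 0.802 and 6.00 CPM among non-manipulated, 2.49, 3.58 and 0.528 among sham-manipulated and 8.80, 13.5 and 8.63 among albumen-deprived hens. Whether XLOC_008697 belongs to the same transcript as the other models was not tested.

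XLOC_020199, on a scaffold without an identified gene, was low in the sham-manipulated hens. It is a model of only 102 bases with 2 exons, and the reads counted were 22, 27 and 44 among non-manipulated, 5, 2 and 8 among sham-manipulated and 50, 39 and 23 among albumen-deprived hens. As normalized counts these were 1.62, 1.80 and 2.47 CPM, then 0.290, 0.0993 and 0.528, then 3.23, 2.23 and 1.51. The sham-manipulated hens were below all others. Against non-manipulated hens the sham-manipulated hens had a log2-fold change of -2.72 ± 0.52 (SE) (edgeR, unadjusted P-value of 0.000509, adjusted p = 0.893) and 2.95 ± 0.52 for albumen-deprived against sham-manipulated hens (unadjusted P-value of 0.000267, adjusted p = 0.412). Over the alternatives the adjusted p ran from 0.00189 to 1.00 in the first and from 4.80e-05 to 0.776 in the second. The second was lost when either sham-manipulated replicate 1 or albumen-deprived replicate 1 was left out (unadjusted P-value of 0.00138 and 0.00122), and the first without any non-manipulated hen, sham-manipulated replicate 1 or 2 or albumen-deprived replicate 2 (P up to 0.00235).

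XLOC_015156 (chromosome 5, 11989958 to 11996564, minus strand, 2 exons) lay on the 5′ side of SPTY2D1, a histone chaperone gene, 8774 bases away. It had 5.17, 2.94 and 4.94 CPM among non-manipulated, 3.01, 2.68 and 3.04 among sham-manipulated and 7.76, 5.66 and 7.37 among albumen-deprived hens. The albumen-deprived hens were the highest 3. Against sham-manipulated hens the log2-fold change was 1.25 ± 0.24 (SE, edgeR, unadjusted P-value of 0.000554, adjusted p = 0.418, range over alternatives 0.00960 to 0.815). It missed the cut-off without any of the sham-manipulated hens or without albumen-deprived replicate 1 or 3 (P up to 0.00293). SPTY2D1 stayed between 27.7 and 41.6 CPM.

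XLOC_012101 (chromosome 3, 106434971 to 106436633, plus strand, 3 exons) lay 3860 bases from ENSGALG00000028422. It had 17.5, 11.1 and 11.6 CPM among non-manipulated, 5.74, 5.26 and 3.37 among sham-manipulated and 12.5, 9.94 and 6.58 among albumen-deprived hens. The sham-manipulated hens were below all others. The log2-fold change between sham-manipulated and non-manipulated hens was -1.48 ± 0.30 (SE, edgeR, unadjusted P-value of 0.000702, adjusted p = 0.893, range over alternatives 0.0124 to 1.00), and it missed the cut-off without any of these 6 hens or without albumen-deprived replicate 2 (P up to 0.00307).

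**Figure D5:**
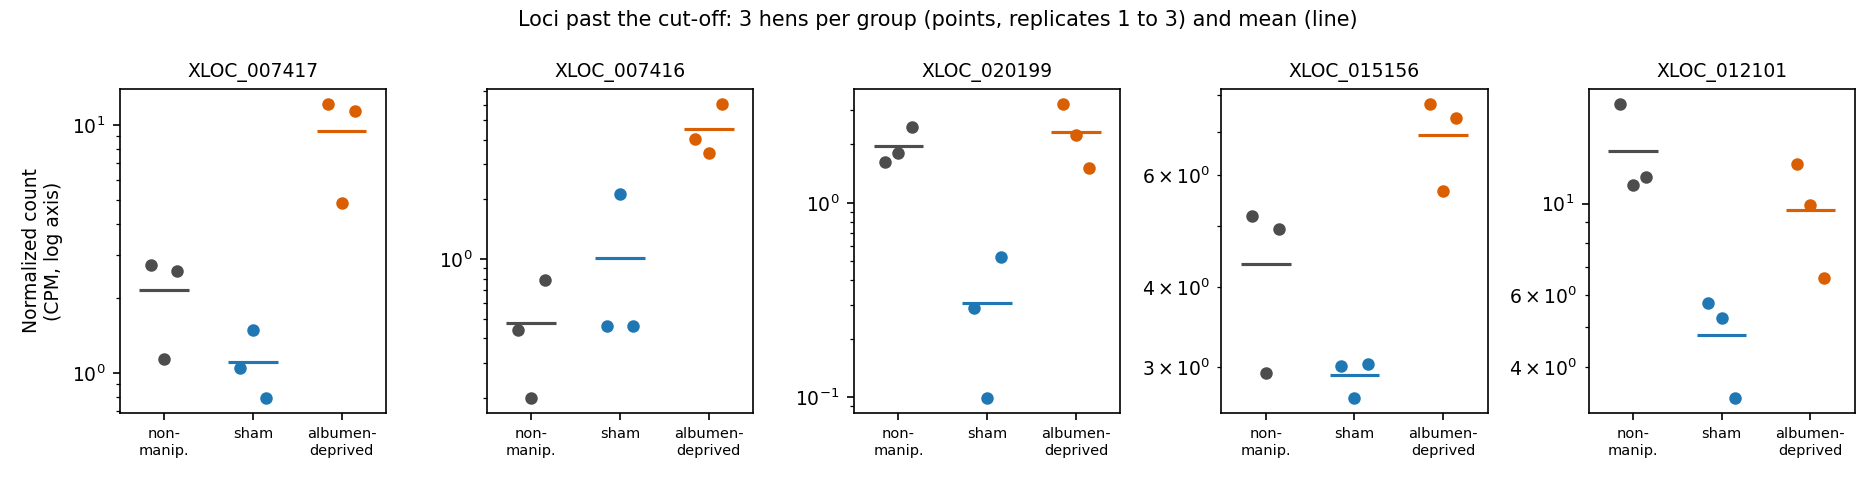
Normalized count (y axis, CPM on a log axis) of the 5 loci past the cut-off in any comparison, in the 3 hens of each group (points, replicates 1 to 3 from left to right) with the group mean (line). XLOC_007417, XLOC_007416 and XLOC_015156 are highest in the 3 albumen-deprived hens, and XLOC_020199 and XLOC_012101 lowest in the 3 sham-manipulated hens.

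The other loci with the smallest P-values missed the cut-off. XLOC_010799 (chromosome 26, 127 bases, 2 exons) lay 4156 bases on the 5′ side of CHIA, the acidic chitinase gene, and had the largest fitted difference of these. It had 4.58, 6.28 and 0.168 CPM among non-manipulated, 0.174, 0.397 and 0.132 among sham-manipulated and 41.9, 10.7 and 3.82 among albumen-deprived hens. The albumen-deprived hens were above all sham-manipulated hens, with a log2-fold change of 6.22 ± 1.33 (SE, edgeR, unadjusted P-value of 0.00108, adjusted p = 0.475), and overlapped the non-manipulated hens. The sham-manipulated counts behind this were only 3, 8 and 2, of which 2 were at or under the floor of 3 counts, so the size of the difference is poorly known. In 9 of 20 alternatives it passed the cut-off. CHIA had 642, 391 and 74.9 CPM among the albumen-deprived and 165, 649 and 330 among the sham-manipulated hens, and these groups overlapped.

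XLOC_019559 (scaffold, 2 exons) was lower in the albumen-deprived hens, at 5.05, 4.63 and 4.48 CPM, than in the non-manipulated hens at 8.86, 10.0 and 7.85 and the sham-manipulated hens at 11.5, 9.44 and 7.06. The albumen-deprived hens were below all others, whose groups overlapped. Its log2-fold change was -0.98 ± 0.20 (SE) against sham-manipulated hens (edgeR, unadjusted P-value of 0.000717, adjusted p = 0.442), just under the fold limit, and -0.92 ± 0.20 against non-manipulated hens (unadjusted P-value of 0.00119). XLOC_009191 (chromosome 20, 15882 bases) lay 68 bases on the 3′ side of the ELMO2 and SLC35C2 locus on the same strand. It was at 55.6 and 57.5 CPM among albumen-deprived replicates 2 and 3, and between 6.95 and 14.8 CPM in the other 7 hens, among them albumen-deprived replicate 1 at 9.51, so its groups overlapped. XLOC_009191 passed the cut-off in 2 of 21 alternatives, 1 of them without albumen-deprived replicate 1. The ELMO2 and SLC35C2 locus stayed between 122 and 171 CPM.

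The remaining 7 loci also missed the cut-off. XLOC_003447 (chromosome 11, 7 exons, 14447 bases) had 13.2, 11.7 and 11.4 CPM among non-manipulated and 6.66, 6.06 and 8.78 among sham-manipulated hens, without overlap (log2-fold change -0.76 ± 0.18, SE). XLOC_000836, 3033 bases from the translation initiation factor gene EIF2S3, had 3.42 to 3.99 CPM among non-manipulated and 1.91 to 2.09 among sham-manipulated hens. XLOC_013129, 400 bases from MOSPD1 on the opposite strand at its 5′ side, had 5.68 to 6.79 and 3.28 to 4.55 CPM. In each of these the sham-manipulated hens were the lower group, and in XLOC_011218, near the zinc transporter gene SLC39A3, they were the higher one with 3.13 to 4.62 against 2.00 to 2.24 CPM. XLOC_000284, 1042 bases on the 3′ side of WDR91, had 3.21 to 3.76 CPM among non-manipulated and 1.54 to 2.50 among albumen-deprived hens. XLOC_019546 had 4.87 to 6.90 and 1.75 to 4.11 CPM in these groups. XLOC_019341 had 1.34 to 1.51 CPM among sham-manipulated and 2.51 to 3.95 among albumen-deprived hens. The smallest unadjusted P-value among them was 0.00144 (edgeR, XLOC_019341, adjusted p = 0.484).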

How the data were processed

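Total liver RNA of 9 hens was made into unstranded libraries. The authors mapped the single-end reads to Galgal4 with TopHat2 2.0.8b, removed poor alignments with SAMtools, merged Cufflinks 2.1.1 models with the Ensembl annotation, and obtained read counts for each locus by HTSeq 0.5.4p3. Reads that fitted more than 1 gene were left out, which can lower the counts and levels of overlapping loci. The deposited counts are not normalized, and GC content is deposited in percent beside the length of each model. The deposited FPKM values had been quantile normalized by the authors, first inside bins of GC content and then across samples, and served only as an alternative. The authors' own table of comparisons (fold changes, p-values and calls) was not used.

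The minimum was over 1 CPM in 3 or more libraries. Levels are TMM-normalized CPM, and were divided by model length where loci are compared. Groups were tested with edgeR 4.0.16 (quasi-likelihood F-test, a coefficient per group over all 9 libraries, common dispersion 0.0630) in R 4.3.3, with Benjamini-Hochberg adjustment over all 12324 loci. The cut-off was P under 0.001 with a log2-fold change above 1 or below -1. Standard errors are the log2-fold change divided by the square root of F. P-values rest on the spread between like-treated hens, estimated over all 3 groups (6 residual degrees of freedom) and moderated over all loci. A hen of the third group can therefore change them. The background is the same count over all loci tested. The script was tested on simulated counts. Gaps run to the nearest identified locus over the minimum. Of 57 nearest genes known only by an Ensembl ID, 0 matched the RefSeq table (GRCg7b), so their IDs are printed.

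Named are all loci past the cut-off, the 6 with the smallest P-value in each comparison, the 10 with the highest level per kb, the 5 longest, the 5 with the largest ratio between hens among those over 1 CPM in all 9, and the 2 largest runs with gaps under 20 kb. The loci and lists were chosen with earlier results of these data known. A count of 3 or fewer was taken as a floor. Alternatives were other scaling, filters, tests (edgeR's likelihood ratio test, DESeq2 1.42.0, limma 3.58.1), designs and each library left out.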

Additional observations from a re-analysis of the deposited data

How the results depend on the processing

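No fitted difference of a locus named by its P-value or the cut-off turned its direction in that comparison. These differences were chosen from the same data for their small P-values, so a turn was unlikely from the start. Fitted differences of the other named loci were not followed. The split of the 34 loci with an unadjusted P-value under 0.05 between albumen-deprived and non-manipulated hens, 14 higher and 20 lower, became 17 and 17 with only the 2 groups compared, 18 and 17 without non-manipulated replicate 1, 20 and 20 without non-manipulated replicate 3 and 9 and 8 without albumen-deprived replicate 1. Past the cut-off, the 2 loci of albumen-deprived against non-manipulated hens became 0 with GC-bin and quantile normalization. A term for the last 3 library codes also gave 0. The count was 1 with limma on log2 FPKM or only the 2 groups compared, and 0 to 2 with a library left out. A stricter minimum, over 1 CPM in all 9 libraries, left 0 because it removed both loci before any test. XLOC_007417 was over 1 CPM in 8 libraries and XLOC_007416 in 4. The 3 loci of albumen-deprived against sham-manipulated hens became 10 with the likelihood ratio test and 10 with DESeq2, and 2 to 6 with a library left out. The 2 loci of sham-manipulated against non-manipulated hens became 1 with quantile normalization, the stricter minimum, limma or 2 groups. The number was 4 with the likelihood ratio test and 0 to 4 with a library left out. The 4 without non-manipulated replicate 2 held neither of these 2 loci. The stricter minimum also removed XLOC_020199 before any test, as it was under 1 CPM in the sham-manipulated hens. Of unadjusted P-values under 0.05, the 34 between albumen-deprived and non-manipulated hens became 22 with the stricter minimum, and 17 to 40 with a library left out, and the 66 of sham-manipulated against non-manipulated hens 27 to 72.

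Replicate numbers are shared between groups but did not pair the hens (correlations of -0.16 to 0.24, and 2 of 9 libraries nearest to their own number). With the replicate block the counts past the cut-off were 0, 4 and 1 in the order above, and with the block and quantile normalization 1 and 1 in the first and last. In the first, this locus was neither XLOC_007417 nor XLOC_007416. With 3 exons or more there were 443 loci. The median level per kb of 4.06 became 6.20 with the stricter minimum and 6.20 with the deposited FPKM. FPKM is another measure than CPM per kb here, as it was quantile normalized. The medians of spliced identified genes under these changes are not given here, so 6.20 cannot be set against their 4.35. The median gap became 12305 bases on the same strand. Among the loci named by a test, 50 values fell short of the cut-off and 18 newly passed it, while 304 kept their side. Levels near 1 CPM rest on 13.7 to 21.7 counts, which limits folds of the low loci. Apart from the loci that the stricter minimum removed, the causes of these changes were not tested.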
